A study of Danio rerio with 16 samples.

Results

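In gonads of zebrafish (Danio rerio) carrying mutations in the microRNA gene miR-214, 100 genes were selected because their expression separated the 2 directions of a reciprocal cross, whatever the genotype of the offspring. They were chosen from a table of 31953 genes. Counts were divided by the library total and expressed per 1000000 counts (CPM), the 17641 genes with a mean of 1 to 500 CPM over 16 libraries were kept, and log2(CPM + 0.5) was taken. The gap of a gene is the distance on that scale between the lowest library of the cross in which it was higher and the highest library of the other cross, so that a positive gap means that the crosses did not overlap. The 100 genes with the largest gap were taken, of 111 genes (0.629% of those in the level range) with a positive gap. Without paternal KO library 4 there were 180 such genes. Since the cross difference chose the genes, it is given below as a description without a test.

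In the maternal cross the mother was homozygous for the mutation and the father heterozygous, and in the paternal cross the father was homozygous and the mother heterozygous. Each cross gave homozygous offspring, labelled KO, and heterozygous offspring, labelled HET, and each of the 4 resulting groups had 4 libraries made from polyadenylated RNA of pooled gonads. All groups carried at least 1 mutant copy, made with CRISPR-Cas9 and 2 guide RNAs, together with the germ cell reporter transgene Tg(vasa:eGFP), and no wild-type group was analysed here. Fish were 31 days post fertilization according to the sample titles and 27 according to the age field, the breed field reads TUE, and the growth protocol names a mix of AB and TU. Pools held 7 gonads in the maternal HET group, 8 or 9 in the maternal KO and paternal KO groups, and 9 in the paternal HET group. The labels give no parent pairs or clutches, so the direction of the cross cannot be told apart from the family of the fish. Nothing in the labels ties the libraries to separate tanks or days, so p-values measure the spread between these pools.

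A reciprocal cross of this kind compares offspring that have the same genotype at 1 locus but differ in which parent was homozygous. Such offspring can differ because the egg is stocked with maternal RNA and protein, because alleles elsewhere in the genome segregate in laboratory strains that are not fully inbred, and because siblings share an environment. Zebrafish pass through a juvenile stage with oocyte-like cells in the gonad before ovary or testis forms, and a gonad therefore holds germ cells, supporting and steroid-producing somatic cells, and blood cells in proportions that change with stage. These statements are background, and none of them was tested as a source of the differences described here.

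Library totals were 19.9 to 24.6 M (mega) counts in the maternal cross and 22.6 to 30.1 M in the paternal cross, and a floor of 3 counts corresponded to 0.0996 to 0.151 CPM, for counting error only. Summed marker genes of 13 cell types and tissues overlapped between the crosses in every list, and no member was on any of those lists. Overlap does not show equal levels, since only 0.629% of genes in the level range did not overlap. Median sums in the maternal and paternal cross were 51.3 and 12.9 CPM for gut. They were 693 and 345 CPM for skeletal muscle and 488 and 314 CPM for skin. The paternal median was the higher for oocytes, testis somatic cells, leukocytes and red blood cells. The part of these sums in the differences of the members was not tested. The oocyte list lacks zpd, a zona pellucida gene by its symbol, which was a member. It had 248 to 290 CPM in the maternal and 296 to 329 CPM in the paternal cross. With library sizes normalized by the trimmed mean of M values the gap of zpd was -0.16, so the crosses overlapped. Within groups, 7 members including zpd had an absolute correlation above 0.7 with the oocyte sum, as did 17.8% of all genes in the level range. Germ cell markers, with 10 of 10 listed genes found, summed to 3143 to 4120 CPM over the 16 libraries. The oocyte markers summed to 12118 to 15392 CPM in the maternal and 13227 to 16236 CPM in the paternal cross, with 14 of 15 listed genes found. In bulk RNA, fewer cells of a type and less RNA per cell cannot be told apart. The mutated gene itself, MIR214 (ENSDARG00000083042), was counted at 0, 0, 1 and 4 reads in the maternal KO libraries and at 3, 4, 9 and 3 in the maternal HET libraries. In the paternal cross the order was the other way round, with 5, 7, 3 and 4 counts in the libraries labelled KO and 0, 2, 0 and 0 in those labelled HET. The KO minus HET difference was -0.144 CPM in the maternal cross (exact two-sided permutation test, n = 4 against 4, p = 0.114, adjusted over 3 tests 0.114) and 0.185 CPM in the paternal cross (exact permutation p = 0.0286, the smallest this design allows, adjusted 0.0429). These 2 differences lay 0.329 CPM apart (exact permutation of labels within crosses, p = 0.00163, adjusted 0.00490). That permutation assumes no label effect in either cross, so an effect in 1 cross alone can also give a small p. The gene goes against the labels of the paternal cross, so its groups are called the libraries labelled KO and the libraries labelled HET throughout. The gap and the cross difference over all 16 libraries pool both labels and do not depend on which is which.

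Of the 100 genes, 36 were higher in the maternal cross and 64 in the paternal cross. With library sizes normalized by the trimmed mean of M values, 45 of them stayed separated and 46 were among the 100 genes the rule then chose. Those newly chosen genes were split into 48 and 52. Without paternal KO library 4, 64 of the original 100 were among the 100 chosen, which were split into 54 and 46. The ratio of the higher cross to the other was taken as 2 to the power of their difference in mean log2(CPM + 0.5). It was 1.09 to 6.65, with a median of 1.34. The added 0.5 lowers it, most in genes of low level, so it is not a ratio of mean CPM. This ratio was at least 1.5 in 40 genes, at least 2 in 16 and at least 4 in 2, and it was under 1.2 in 22 genes. Most gaps were narrow, with a median of 0.06 on the log2 scale, 30 genes at 0.1 or more and 5 at 0.5 or more. The genes were spread over the level range much like the others, with a median of the mean level of 15.8 CPM against 13.3 CPM for all genes in the range. Their libraries were closer to each other within a cross, with a median SD of 0.15 in the maternal and 0.13 in the paternal cross against 0.20 and 0.23 for all genes in the range, which the rule favours because a narrow spread leaves room for a gap.

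**Figure D1:**
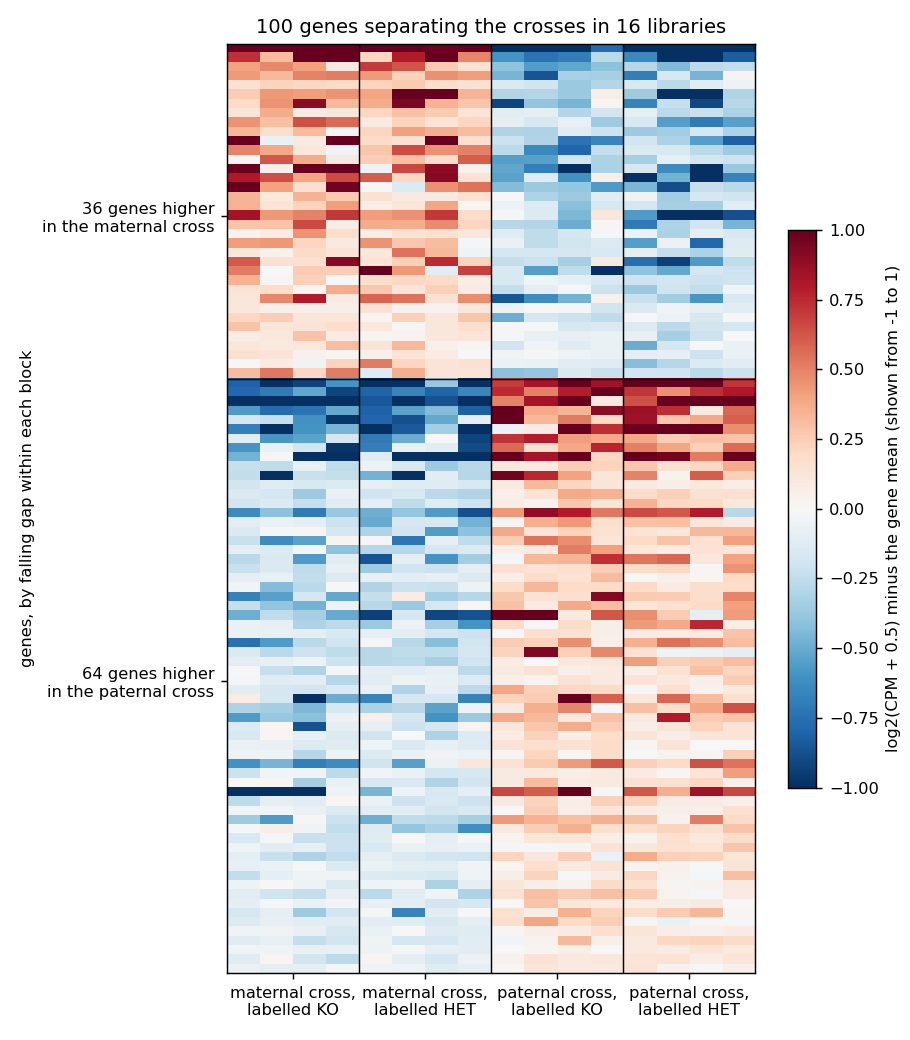
Heat map of the 100 genes (rows) in the 16 libraries (columns, 4 per group), as log2(CPM + 0.5) minus the mean of the gene, shown from -1 to 1. The 36 genes of the upper block were higher in the maternal cross and the 64 of the lower block in the paternal cross. Genes are ordered by falling gap within each block, and the colour, which shows the deviation from the gene mean, does not follow that order strictly, as in ftr53 with a ratio of 2.31 at place 74.

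The gene with the largest gap, si:ch211-158d24.4 (ENSDARG00000093048), an unnamed clone-based gene, was read at 4.27 to 7.63 CPM in the maternal cross, with a median of 5.8, and at 0.232 to 0.915 CPM in the paternal cross, with a median of 0.412. Its ratio was 6.65 (mean CPM 5.83 in the maternal and 0.461 in the paternal cross), and its gap was 1.75. Counts behind these values were 104 to 176 and 7 to 22 per library, so every library was above the floor. AQP8 (ENSDARG00000045141), an aquaporin that conducts water in mammals, had 6.33 to 15.9 CPM (median 9.54) against 1.73 to 4.41 CPM (median 3.11), with a ratio of 3.03. Within groups, AQP8 had an absolute correlation above 0.7 over the 16 libraries with 7 of the 13 marker sums introduced above. These were oocytes, ovarian somatic cells, leukocytes, red blood cells, fat and connective tissue, neurons and skin. Such correlations were common, at 11.02% (red blood cells) to 28.0% (leukocytes) of all genes in the level range for these lists. The part of these sums in the cross difference of AQP8 was not tested. The maternal libraries of AQP8 themselves ranged over more than the distance between the crosses.

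Other maternal-higher genes encode proteins of the cytoskeleton, a collagen-modifying enzyme and a membrane channel subunit. CAMSAP2, which binds the minus ends of microtubules, had 12.2 to 18.7 CPM (median 15.2) in the maternal and 7.58 to 9.48 CPM (median 8.47) in the paternal cross. PLOD3, a lysyl hydroxylase that modifies collagen, had 117 to 155 CPM (median 144) against 90.2 to 108 CPM (median 93.9). The PLOD3 difference was one of the better counted ones, since even the lowest library was far above the floor. With normalized sizes the gap of PLOD3 was -0.040, so the crosses overlapped. A voltage-gated calcium channel subunit, cacna1aa, had 8.04 to 12 CPM (median 9.16) against 4.45 to 7.11 CPM (median 6.24). The gene cyt1l, of the type I keratin family, had 2.39 to 6.10 CPM (median 2.92) against 1.22 to 2.16 CPM (median 1.74). Within groups, cyt1l had an absolute correlation above 0.7 with the summed skin markers, as did 24.6% of all genes in the level range. That sum was 222 to 1020 CPM in the maternal and 178 to 503 CPM in the paternal cross. Its part in the cyt1l difference was not tested.

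Genes of metabolism were also among the 12 maternal-higher genes with the largest gaps. GPAM, which starts glycerolipid synthesis in mitochondria, had 32.7 to 40.1 CPM (median 34.9) in the maternal and 24.7 to 29.0 CPM (median 26.7) in the paternal cross, a ratio of 1.32. DPYD, which degrades pyrimidines, had 23.0 to 37.2 CPM (median 31.7) against 13.4 to 21.3 CPM (median 19.5), a ratio of 1.64. With normalized sizes the crosses overlapped in DPYD (gap -0.14) but not in GPAM (0.087). DHRS7C, a short-chain dehydrogenase known from striated muscle in mammals, had 12.2 to 14.9 CPM (median 14) against 5.45 to 10.5 CPM (median 7.72). The summed skeletal muscle markers overlapped between the crosses, at 243 to 2574 CPM in the maternal and 215 to 869 CPM in the paternal cross, and their part in the DHRS7C difference was not tested. The narrow, well separated pattern was clearest in si:dkeyp-120h9.1, with 43.3 to 46.6 CPM (median 44.7) in all 8 maternal libraries and 29.9 to 37.5 CPM (median 34.3) in all 8 paternal ones.

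In the opposite direction, si:ch211-182p11.1 (ENSDARG00000104324) had 1.15 to 3.25 CPM (median 2.00) in the maternal and 7.42 to 11.5 CPM (median 8.81) in the paternal cross, with a ratio of 3.75. MIF4GD (ENSDARG00000102080), related to a mammalian protein that acts in histone mRNA translation, had 2.17 to 4.09 CPM (median 2.99) against 8.32 to 48.7 CPM (median 18.1), a ratio of 5.40. Its paternal libraries differed from each other by more than the gap, whereas its maternal libraries lay close together. The gene with the next largest gap in this direction after si:ch211-182p11.1, a clone-based gene with the identifier ENSDARG00000101254, had 0.529 to 0.855 CPM (median 0.659) against 2.16 to 3.66 CPM (median 2.74). ENSDARG00000101002, which has no symbol, had 0.260 to 0.493 CPM (median 0.353) against 0.929 to 2.80 CPM (median 1.61).

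**Figure D2:**
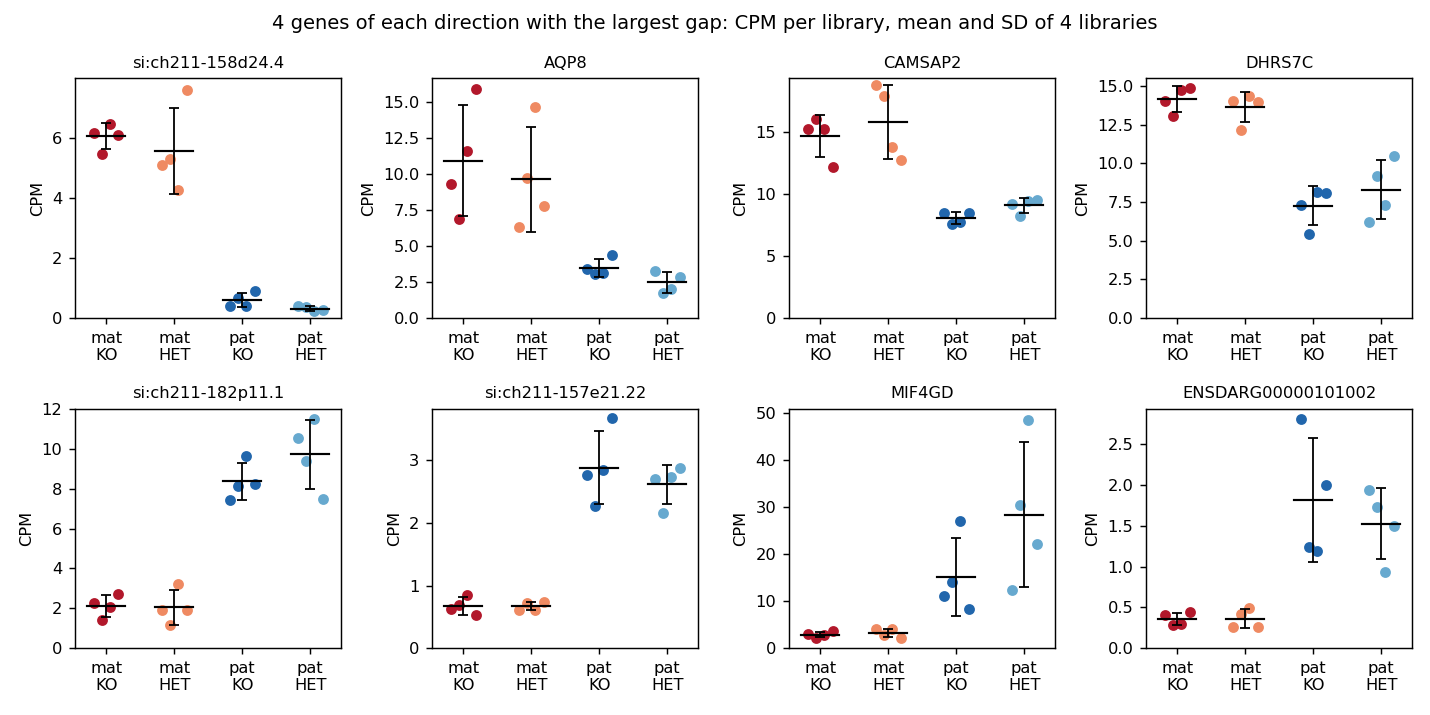
CPM of the 4 genes of each direction with the largest gap, with 1 point per library, a bar for the mean and whiskers for the SD of 4 libraries (mat and pat stand for the maternal and paternal cross, KO and HET are the labels). In si:ch211-158d24.4 the 8 maternal libraries sit between 4.27 and 7.63 CPM and the 8 paternal libraries between 0.232 and 0.915 CPM, and in MIF4GD the spread is within the paternal cross.

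Secreted and signalling proteins followed among the paternal-higher genes. ENPP2, or autotaxin, which makes the lipid signal lysophosphatidic acid, had 1.21 to 2.92 CPM (median 2.06) in the maternal and 3.67 to 17.2 CPM (median 7.39) in the paternal cross. The cartilage proteoglycan gene snorc had 3.52 to 6.85 CPM (median 4.84) against 8.57 to 16.5 CPM (median 10.3). The T cell co-stimulatory receptor gene cd28 had 0.682 to 1.73 CPM (median 1.5) against 1.96 to 4.20 CPM (median 2.78). All 3 were low in absolute counts in the maternal cross but above the floor in each library. The 12 paternal-higher genes with the largest gaps also included genes of RNA handling and trafficking. upf3a, of nonsense-mediated mRNA decay, had 0.881 to 2.09 CPM (median 1.58) against 2.53 to 4.08 CPM (median 3.2). SF3B2, a part of the spliceosome, had 168 to 180 CPM (median 174) against 198 to 238 CPM (median 204), and BLZF1, a Golgi matrix protein, had 63.5 to 78.5 CPM (median 68.9) against 87.5 to 106 CPM (median 95). With library totals, SF3B2 shows how a ratio of 1.2 can separate the crosses when libraries agree closely. With normalized sizes its gap was -0.027, so the crosses overlapped. Of the remaining genes of this group, ENSDARG00000098222 had 1.02 to 5.8 CPM (median 2.66) against 6.82 to 19.8 CPM (median 12), and si:dkey-201i2.4 had 0.347 to 1.11 CPM (median 0.621) against 1.4 to 2.26 CPM (median 1.59).

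The last members were separated by very little. MYEF2, zgc:66455 and HBS1L took the places 98, 99 and 100 with gaps of 0.014, 0.0095 and 0.0086. HBS1L, which acts in the rescue of stalled ribosomes, had 57.8 to 62.4 CPM (median 59.7) in the maternal and 62.8 to 69.2 CPM (median 66.0) in the paternal cross. Just outside, tpm3, adora3a.1 and ADRM1 had gaps of 0.0058, 0.0036 and 0.0029. The genes on either side of the limit were therefore alike, and 11 further genes that separated the crosses are not among the 100.

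Many of the strongest differences were in genes without an established name. A placeholder symbol or no symbol was found for 20 of the 100 genes, against 16.8% of genes in the range, but for 5 of the 10 with the largest gap and 9 of the 16 with a ratio of at least 2. Symbols in capitals are given as the name table lists them, and 9 members shared a symbol with another identifier. Those partners overlapped between the crosses in each of the 9 cases. The other MIF4GD identifier (ENSDARG00000102578), for example, had 12.1 to 25.2 CPM in the maternal and 12.6 to 20.3 CPM in the paternal cross, a mean difference of -0.001 on the log2(CPM + 0.5) scale against -2.43 for the member. Whether reads were split between such copies cannot be read from a gene table, so values of these genes are uncertain. The strand setting of the counting is not given in the sources used here, and overlapping genes on opposite strands cannot be told apart.

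Some members belonged to multigene families, whose other genes were listed for comparison. The adgre genes encode adhesion G protein-coupled receptors, a class known in mammals from leukocytes, and 10 of 14 identifiers had a mean of at least 1 CPM. Both members of this family were higher in the maternal cross. adgre17 had 1.66 to 3.11 CPM (median 1.91) in the maternal and 0.494 to 1.41 CPM (median 0.897) in the paternal cross, and adgre19 had 1.41 to 2.36 CPM (median 1.77) against 0.607 to 1.33 CPM (median 0.970). Among the 8 other genes the crosses overlapped. The mean log2(CPM + 0.5) of adgre15, adgre16, adgre9 and adgre7 was higher in the maternal cross by 1.18, 0.94, 0.87 and 0.54, while that of adgre18 and adgre14 was higher in the paternal cross by 0.61 and 0.18 (maternal minus paternal -0.61 and -0.18). Summed leukocyte markers were at 233 to 652 CPM in the maternal and 202 to 870 CPM in the paternal cross, and their part in the adgre differences was not tested.

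**Figure D3:**
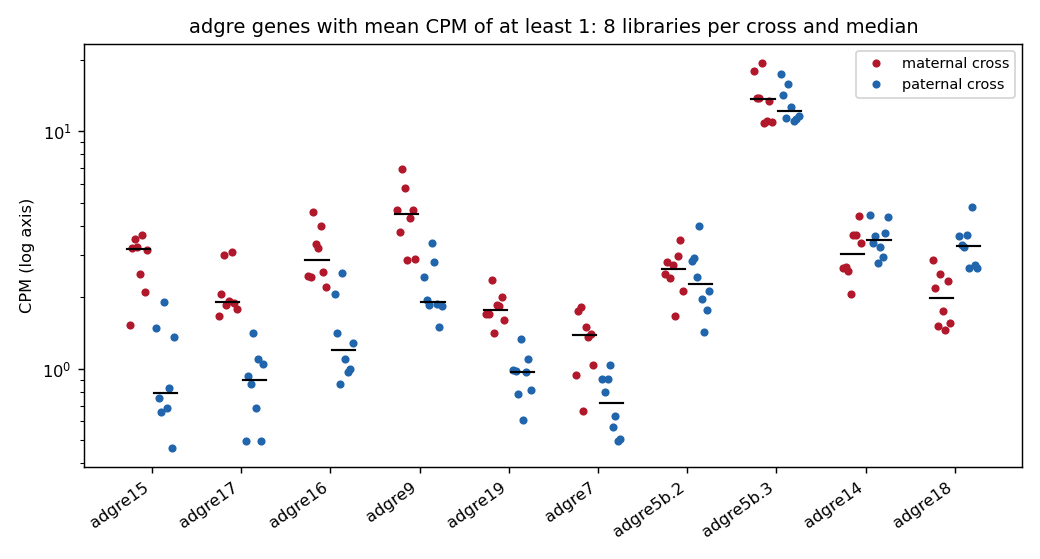
CPM on a log axis of the 10 adgre genes with a mean of at least 1 CPM, with 1 point for each of the 8 libraries of a cross and a bar for the median, ordered by the mean difference. Only adgre17 and adgre19 were separated, and adgre14 and adgre18, at the right, had the higher median in the paternal cross.

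Other families were represented by 1 gene each. cyp2aa3, a cytochrome P450, had 15.8 to 24.4 CPM (median 19) in the maternal and 10.5 to 14.6 CPM (median 13.0) in the paternal cross. With normalized sizes its gap was -0.13, so the crosses overlapped. Of the 8 expressed cyp2aa genes 7, cyp2aa3 among them, had the higher mean in the maternal cross. All but cyp2aa3 overlapped, with mean log2 differences (maternal minus paternal) from -0.96 in cyp2aa7 to 0.30 in cyp2aa9. btr25, of the bloodthirsty-related TRIM genes, had 4.19 to 6.44 CPM (median 5.57) against 6.92 to 8.45 CPM (median 7.34). Of the 16 expressed btr genes 11, btr25 among them, had the higher mean in the paternal cross, and all but btr25 overlapped. In the finTRIM and ms4a17a families most genes had the higher mean in the cross opposite to that of their member. ms4a17a.16 had 0.808 to 1.70 CPM (median 1.18) against 1.82 to 3.45 CPM (median 2.00), whereas 3 of the 4 expressed ms4a17a genes had the higher mean in the maternal cross. In the finTRIM family 25 of 39 expressed genes had the higher mean in the maternal cross, and its 1 member was higher in the paternal cross. That gene, ftr53, had 0.0406 to 1.45 CPM (median 1.14) against 1.5 to 3.82 CPM (median 2.66). With normalized sizes its crosses overlapped (gap -0.092). It was the only member with 3 or fewer counts in any library, namely 1 count in maternal KO library 2. By symbol start, 5 members (cd28, TRIM9, ftr53, trim107 and ildr1a) fell on a list of immune gene families, against 2.36% of genes in the range. The list takes any symbol that begins with a listed start, such as cd or il, so neither share is one of immune genes alone. ildr1a is on it through the letters il, and TRIM9 is better known as a neuronal ubiquitin ligase.

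Gene order was read from the RefSeq table of assembly GRCz12tu, which is not the build of the counts. Only 72 of the 100 members could be placed, under the 80% required, so a check of position over the set is void and the following is a description of the placed genes. A single chromosome held 11 of the 72, and all 11 were higher in the paternal cross. It also held 4.72% of the placed genes in the level range, and no other chromosome held more than 6 members. The 11 genes were NFKBIZ, ildr1a, pros1, BLZF1, si:dkey-117m1.4, TMEM187, smu1b, cracdlb, LEF1, zgc:66455 and DCAF15. Of the 61 members placed elsewhere, 39 were higher in the paternal cross.

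Next to each other, with no protein-coding gene between them, lay cracdlb and LEF1, and also C1QBP and ZNHIT3. LEF1, a transcription factor of Wnt signalling, had 7.79 to 11.9 CPM (median 9.5) in the maternal and 12.2 to 17.1 CPM (median 14.9) in the paternal cross, and cracdlb had 15.7 to 21.3 CPM (median 18.2) against 22.5 to 26.8 CPM (median 24.2). The mitochondrial protein gene C1QBP had 93.8 to 104 CPM (median 102) against 108 to 132 CPM (median 115), and ZNHIT3 had 8.54 to 12.1 CPM (median 10.03) against 12.5 to 19.8 CPM (median 16.0). Both pairs were thus higher in the paternal cross. With normalized sizes LEF1 and cracdlb stayed separated (gaps 0.27 and 0.015), whereas the crosses overlapped in C1QBP and ZNHIT3 (-0.092 and -0.18). Further pairs were NFKBIZ, an inhibitor-of-NF-kappaB family member, and ildr1a with 3 genes between them, and pros1, the gene of the anticoagulant protein S, and BLZF1 with 5. With normalized sizes BLZF1 stayed separated (gap 0.0013), and NFKBIZ, ildr1a and pros1 overlapped (-0.16, -0.20 and -0.027).

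The cross difference was then compared between genotype labels. On the log2(CPM + 0.5) scale it had the same sign under both labels in each gene, which the rule fixes, and it was larger in size among HET libraries in 53 genes and among KO libraries in 47. In 26 genes it was at least 1.5 times as large under one label as under the other. ENPP2 differed by -2.11 (maternal minus paternal) among HET and by -1.17 among KO libraries. For MED1, a subunit of the Mediator complex that links transcription factors to RNA polymerase, the values were 1.38 and 0.74, and for TRIM9 they were -0.58 and -0.19. NCDN, which encodes the neuronal protein neurochondrin, went the other way, with -0.23 among HET and -0.69 among KO libraries. These values pair the crosses by label, so they would change if the paternal labels were turned.

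**Figure D4:**
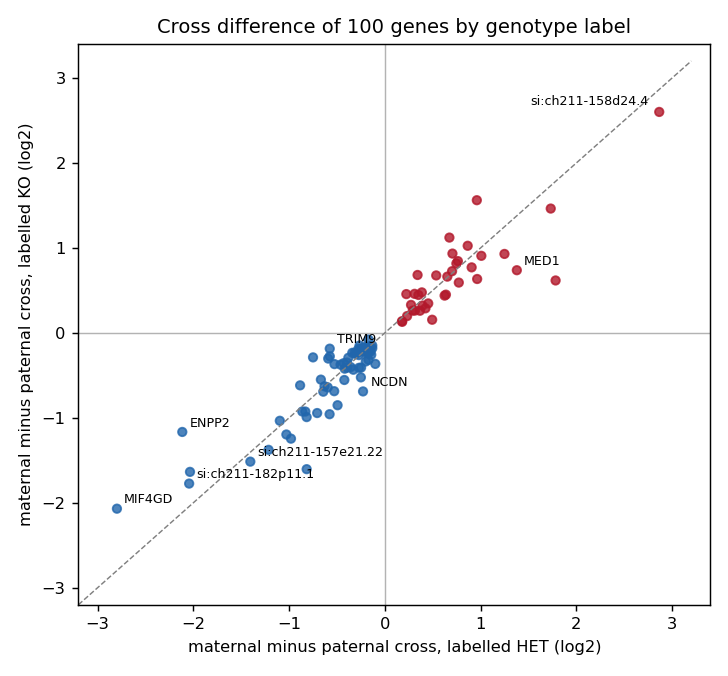
Maternal minus paternal difference of each of the 100 genes in mean log2(CPM + 0.5), among libraries labelled HET (horizontal axis) and KO (vertical axis), with equal values on the dashed line. The pairing takes the paternal labels as given. The signs are fixed by the selection, and ENPP2 (-2.11 and -1.17) lies above the line, with the larger difference among HET libraries, while NCDN (-0.23 and -0.69) lies below it, with the larger difference among KO libraries.

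Whether these differences depended on genotype was tested as the interaction of label and cross, with edgeR's quasi-likelihood test over 21683 genes, all 100 members among them, and Benjamini-Hochberg adjustment. If the paternal labels were turned, as the MIR214 counts leave possible, this contrast and the average over crosses given further on would trade places. None of the 100 genes passed an adjusted p of 0.05 in the interaction with the labels as given, against 0.189% of all tested genes. Unadjusted, 8 of the 100 were below 0.05, against 3978 of all 21683 tested genes. The rule favours genes with little spread within a cross, so these counts are no result about the members. The smallest adjusted p, 0.082, was that of TRIM9, whose KO minus HET log2 fold change was higher in the maternal than in the paternal cross by 0.47 ± 0.11 (SE). DESeq2 called this gene alone, with 0.48 ± 0.13 and an adjusted p of 0.0125 (3.18% of all genes were called by DESeq2), over alternatives that otherwise gave 0 or 1 called member. The next in order was MED1 at -0.62 ± 0.19 (adjusted p = 0.143).

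Within the maternal cross, none of the 100 genes differed between KO and HET at an adjusted p below 0.05 by edgeR (0.198% of all tested genes did), and none did by DESeq2 (1.0% of all its genes) or under any other setting tried. At an unadjusted p below 0.05 there were 6 of the 100 genes, against 1931 of all 21683 tested genes. The rule favours little spread within a cross, so this is no result about the members. The 2 groups did not overlap in 2 members, cacna1aa and btr25, or in 5.15% of genes in the level range. cacna1aa had 10.5, 9.42, 12 and 11.4 CPM in the KO and 8.04, 8.90, 8.34 and 8.84 CPM in the HET libraries, so that each KO library lay above each HET library. The largest estimate was that of ftr53, with 0.493, 0.0406, 0.453 and 1.45 CPM in the KO and 0.967, 1.45, 1.31 and 1.39 CPM in the HET libraries. Its log2 fold change of -1.17 ± 0.50 (SE) did not pass (adjusted p = 0.486), and the groups overlapped through 1 KO library.

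In the paternal cross, 10 of the 100 genes differed between libraries labelled KO and HET, 2 of them higher (MED1 and NCDN) and 8 lower in those labelled KO. Over all tested genes 23.2% passed, 14.1% as higher and 9.14% as lower. The 8 lower members were near that share of 9.14%, and the 2 higher ones were under 14.1%. The rule favours genes with little spread within a cross, which includes the spread between labels, so the lower total is no result about the members. The split was 3 higher and 4 lower with upper-quartile scaling and 1 higher and 12 lower with relative log expression scaling (RLE). The direction holds only as far as the labels of this cross do, because MIR214 was higher in the libraries labelled KO. Summed markers also differed there without overlap, with oocyte markers at 13227 to 14589 CPM in the libraries labelled KO and 14987 to 16236 CPM in those labelled HET, and leukocyte markers (14 of 17 listed genes found) at 449 to 870 against 202 to 364 CPM. Markers of ovarian somatic cells (3 of 8 found, 30.4 to 46.1 against 20.1 to 27.8 CPM) and testis somatic cells (9 of 11 found, 532 to 866 against 314 to 407 CPM) were higher in the libraries labelled KO as well, and their part in the differences of these 10 genes was not tested. All other marker lists overlapped between these labels. They were germ cells, red blood cells, skeletal muscle, liver, gut, kidney, fat and connective tissue, neurons and skin. Listed CPM are per library total, whereas the fold changes use normalized sizes. Median size factors were 1.05 under KO and 0.942 under HET in this cross, and 1.06 and 0.971 in the maternal cross. Fold changes of KO against HET are therefore lower than the listed CPM give.

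MED1 rose most clearly. It had 10.5, 9.57, 7.61 and 11.5 CPM in the paternal libraries labelled KO and 6.98, 4.13, 4.88 and 5.52 CPM in those labelled HET, a log2 fold change of 0.71 ± 0.14 (SE, edgeR adjusted p = 0.00742). The groups did not overlap, and MED1 passed in all 22 alternatives (other scalings, filters, fits or 1 library left out), with adjusted p from 0.000105 to 0.0329. Within groups, MED1 varied with the summed markers of several cell types and tissues, given as a description. Its absolute correlation over 16 libraries was above 0.7 for oocytes, leukocytes, the somatic cells of ovary and testis, fat and connective tissue, and neurons. The same held for 17.8%, 28.0%, 27.4%, 16.1%, 23.2% and 20.8% of all genes in the level range. Its maternal libraries had 19.2, 14.5, 15.1 and 17.5 CPM under KO and 14.3, 14.7, 17.5 and 12.1 CPM under HET, which overlapped. NCDN had 54.3, 88.8, 54.7 and 64.9 CPM against 51.3, 44.9, 44.7 and 43.5 CPM, a log2 fold change of 0.36 ± 0.12 (adjusted p = 0.0414). The groups did not overlap, but 1 library labelled KO, at 88.8 CPM, stood well above the other 3, and the gene passed in 10 of 22 alternatives (adjusted p 0.0205 to 0.131).

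Among the genes that fell in the paternal libraries labelled KO, TRIM9 was the steadiest. It had 21.9, 20.8, 22.4 and 22.5 CPM there and 27.9, 24.6, 25.0 and 25.9 CPM in the libraries labelled HET, a log2 fold change of -0.39 ± 0.08 (SE, edgeR adjusted p = 0.00790, from 0.000107 to 0.0388 over 22 alternatives, all passing). RASSF1, which encodes a Ras-association tumour suppressor protein, had 21.0, 26.2, 25.5 and 24.7 CPM against 29.1, 28.4, 26.4 and 29.6 CPM, a log2 fold change of -0.37 ± 0.09 (adjusted p = 0.0145, 0.00182 to 0.0540 over alternatives). Both genes had separate groups. The RNA-binding protein gene MYEF2 was separated too, with 83.3, 84.6, 86.6 and 82.7 CPM against 88.9, 88.1, 90.6 and 88.9 CPM. Its log2 fold change with normalized sizes was -0.23 ± 0.07 (adjusted p = 0.0265, 0.00625 to 0.0957 over alternatives). The listed CPM of MYEF2, per library total, differ by less than that.

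For the remaining genes that fell, the groups overlapped in CPM. STAMBP, a deubiquitinase of the endosome, had 20.3, 20.3, 20.9 and 22.8 CPM in the libraries labelled KO and 22.2, 22.9, 22.7 and 25.0 CPM in those labelled HET (log2 fold change -0.30 ± 0.08, adjusted p = 0.0163, 0.00148 to 0.0559 over alternatives). The gene si:dkeyp-120h9.1 had 35.1, 33.7, 29.9 and 31.6 CPM against 34.9, 32.2, 35.9 and 37.5 CPM (-0.26 ± 0.07, adjusted p = 0.0200, 0.00432 to 0.0748). DPYD, IGDCC3 and ENPP2 passed with adjusted p of 0.0418, 0.0433 and 0.0441 and failed in 8, 9 and 11 of 22 alternatives. ENPP2 had the largest fall, by 0.99 ± 0.34 on the log2 scale, from 8.04, 10.01, 17.2 and 5.49 CPM in the libraries labelled HET to 3.67, 4.08, 8.43 and 6.74 CPM in those labelled KO. Of the 8 genes that fell, 3 were higher in the maternal and 5 in the paternal cross.

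**Figure D5:**
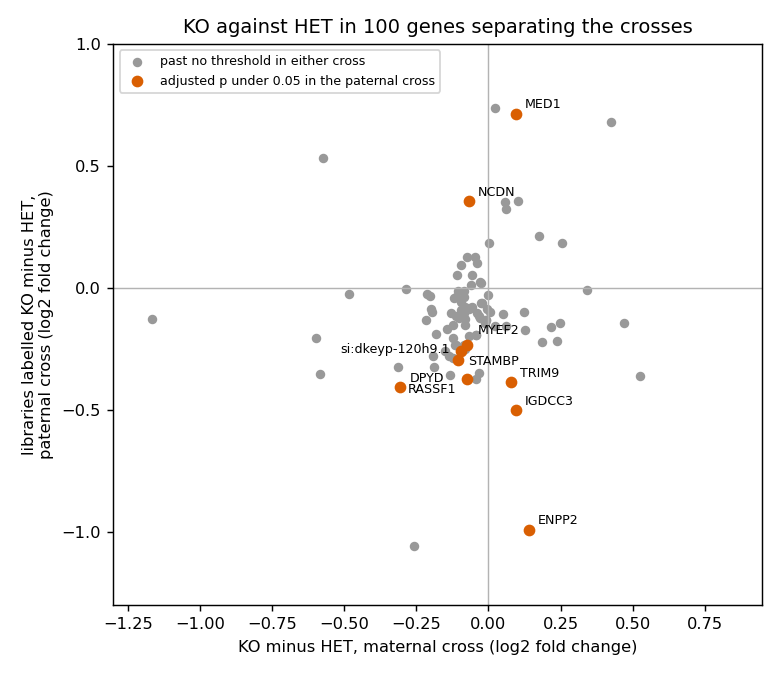
edgeR log2 fold change of libraries labelled KO against HET for the 100 genes in the maternal cross (horizontal axis) and the paternal cross (vertical axis), with the 10 genes past an adjusted p of 0.05 in the paternal cross in orange. MED1 (0.71) and NCDN (0.36) lie above 0 on the vertical axis and the 8 others below, with ENPP2 (-0.99) lowest of the 10, and no gene passed in the maternal cross.

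The largest estimates that did not pass in the paternal cross were those of MIF4GD and si:ch211-158d24.4. MIF4GD had 11.2, 14.2, 27.1 and 8.32 CPM in the libraries labelled KO and 12.4, 30.6, 48.7 and 22.1 CPM in those labelled HET (log2 fold change -1.06 ± 0.38, edgeR adjusted p = 0.0536). For si:ch211-158d24.4 the values were 0.412, 0.665, 0.411 and 0.915 against 0.417, 0.366, 0.232 and 0.271 CPM (0.74 ± 0.31, adjusted p = 0.0908). Both genes overlapped between labels. Without overlap were 9 members in all, against 25.4% of genes in the level range.

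The number of paternal calls changed with single libraries, among the members and among all tested genes, of which 5034 of 21683 passed with all libraries. Among members it fell to 3 without paternal KO library 4 (1026 of all 21892 genes) or without paternal HET library 3 (1286 of 21993). It fell to 5 without paternal KO library 2 (3263 of 21968) or without paternal HET library 2 (3084 of 21997). Without paternal KO library 3 it rose to 19 (5329 of 21985). DESeq2 called 18 of the 100 genes, against 29.5% of all its genes. Averaged over both crosses, 6 of the 100 genes passed (12.2% of all tested genes). They were MED1 as higher and STAMBP, DPYD, si:dkeyp-120h9.1, RASSF1 and pros1 as lower in libraries labelled KO. With 1 library left out 0 to 20 members passed, and 538 to 6092 of all tested genes. DESeq2 called 16 members in this average against 22.6% of all its genes. This average takes the labels of both crosses as given, although MIR214 was lower in KO than in HET libraries of the maternal cross and higher in the libraries labelled KO of the paternal cross. With the paternal labels turned it would be the interaction contrast, in which 0 of the 100 genes passed. The median log2 fold change of the 100 genes was -0.07 in the maternal and -0.12 in the paternal cross, with 75 and 80 genes below 0. With library totals in place of normalized sizes these medians were 0.01 and 0.03 with 40 and 39 genes below 0, where all genes in the range had medians of 0.08 and 0.13. With normalized sizes all tested genes had medians of -0.002 in the maternal and 0.016 in the paternal cross, with 50.5% and 48.4% below 0. The sign of the members' median therefore turned with the scaling. Under both scalings their median lay below that of the other set of genes given, and the source of this was not tested. The 10 paternal calls kept their sign under both.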

How the data were processed

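Per the labels' protocols, RNA was extracted with Trizol and kits, libraries were made with a stranded mRNA kit from 193 ng in 13 PCR cycles, and 1 flow cell was used for the 16 libraries (single reads, 84 cycles). The submitters' processing notes name STAR 2.4.1d, featureCounts 1.4.6, DESeq2 and the build danRer10. The authors deposited whole-number counts per gene, not normalized, in 1 table; 16 columns were used and 0 left out. Of 31953 genes, 3284 had no count and 26121 had a symbol in the name table.

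The members and lists were chosen with earlier results of these data known. Genes were named by rule: the 12 with the largest gap in each direction, up to 6 with the smallest p per tested contrast, those at the limit, those on fixed lists, neighbours, and the 3 largest differences that did not pass. Of the named genes, 1 is not reported here. IGDCC3, NCDN and zpd, which fall outside this rule, and the families and genes compared between labels, were named after their values were seen. For KO against HET, counts were filtered with filterByExpr (minimum count 10, 21683 genes), scaled by the trimmed mean of M values and tested with edgeR 4.0.16 (R 4.3.3) over all 16 libraries in 4 groups, with Benjamini-Hochberg adjustment over all genes and a threshold of 0.05. SE is the log2 fold change divided by the root of the F statistic. The procedure was tested on simulated data. Chi-square per degree of freedom was 6.46 to 52.6 over replicate pairs, so no library was a duplicate. Alternatives were other normalizations, filters, DESeq2 1.42.0, a replicate block, fits within a cross, other membership settings, leaving out each library and, added after seeing the data, thinned counts.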

Additional observations from a re-analysis of the deposited data

Results flagged for a closer look

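Among 96 sets of 4 libraries (23 genes and the library totals, each in 4 groups), 8 had a sample far from the other 3. A rate of 1 in 20 would give about 4.8. That rate is one for unselected sets, and the 23 genes were chosen by their gap in the same values. The 8 can therefore not be read against it. On the log2(CPM + 0.5) scale, DHRS7C was low in maternal HET library 2 (3.66), adgre17 was high in maternal HET library 2 (1.85), GPAM was high in maternal KO library 2 (5.34), cyt1l was high in maternal HET library 3 (2.68), BLZF1 was high in maternal KO library 3 (6.29) and cd28 was low in maternal KO library 2 (0.251). The library total was low in paternal KO library 2 (22.6 M counts) and in paternal HET library 1 (26.4 M). The KO minus HET difference of MIR214 was lower in the maternal than in the paternal cross (-0.329 CPM, exact permutation p = 0.00163 against no label effect in either cross). Its sign differed between the crosses, on 0 to 9 counts per library.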

How the results depend on the processing

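Membership depended most on scaling. With normalized library sizes 46 of the 100 genes were chosen again, without paternal KO library 4 there were 64, and over all libraries left out 64 to 91. Pseudocounts of 0.1 and 2 kept all 100, wider level limits 88 and thinned counts 76. In all 21 other settings 34 genes were kept, of which 22 were among the first 30. Under normalized sizes all 100 kept their direction on average and 45 stayed separated, 30 of the 40 with a ratio of at least 1.5 but 1 of the 22 under 1.2. Called members in the paternal cross were 10, and 18 with DESeq2, 13 with RLE, 7 with upper-quartile scaling (3 higher, 4 lower), and 3 to 19 leaving out a library. The average over crosses gave 6, and 11 with RLE, 2 with upper-quartile scaling, 16 with DESeq2 and 0 to 20 leaving out a library. Over all tested genes, leaving out a library gave 1026 to 6084 calls in the paternal cross and 538 to 6092 on average. The interaction gave 0, and 1 with DESeq2 (TRIM9) and 0 to 1 leaving out a library. The maternal cross gave 0 throughout. The cause of these changes was not tested. With the replicate number as a block, 5 members passed in the paternal cross and 0 on average. The numbers did not pair the libraries (correlations of deviations -0.430 to -0.153 in the maternal and -0.0880 to 0.347 in the paternal cross, and 3 of 16 libraries correlated best with their own number). Low counts limit the precision of the 27 members under 5 CPM.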
